A study of Mus musculus with 21 samples.

Results

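Fos, Fosb, Jun, Junb, Egr1, Egr2, Ier2, Nr4a1, Nr4a2 and Npas4 are immediate early and activity-induced genes, and their RNA was measured in islets of male CBA mice by bulk RNA-seq. They were chosen by name, as 10 genes matched by symbol to 10 of the 55536 gene identifiers in the count files, and 9 of the 10 reached the minimum of 10 read pairs over all samples that the test required. The mice were 10 weeks old when they were fed regular chow (RD, the regular diet), a high-fat diet (HFD) or that diet containing O304 at 0.8 mg per g of diet (HFD-O304), for 9 weeks by the methods of the study and 10 weeks by its results text. O304 is a small molecule activator of AMPK, a kinase that senses the energy state of the cell. Each group had 7 samples, and each sample was RNA of 150 islets from a pool of islets of 5 mice, freed from the pancreas by collagenase digestion and picked by hand. Animals of a pool cannot be told apart, so p-values measure the spread between pools.

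Immediate early genes are transcribed within minutes of a stimulus without the need for new protein. In islets the stimuli include glucose, membrane depolarization, calcium entry and cyclic AMP, which act through kinases and the transcription factors CREB, SRF and MEF2. Most of the proteins are transcription factors that are short-lived, and the RNAs are degraded rapidly, so a measured level reflects recent events. Fos, Fosb, Jun and Junb encode subunits of the AP-1 dimer, Egr1 and Egr2 encode zinc finger factors, and Ier2 encodes a short nuclear protein. Nr4a1 (Nur77) and Nr4a2 (Nurr1) encode orphan nuclear receptors, and Npas4 encodes a bHLH-PAS factor induced by calcium that is known from neurons and β-cells.

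Positions are those of GRCm38 (GENCODE M21). Nr4a2 (ENSMUSG00000026826) spans chromosome 2 from 57106830 to 57124003 on the minus strand. Nr4a1 (ENSMUSG00000023034) spans chromosome 15 from 101254269 to 101274795 on the plus strand. Npas4 (ENSMUSG00000045903) spans chromosome 19 from 4984355 to 4990316 on the minus strand, and Fos (ENSMUSG00000021250) spans chromosome 12 from 85473890 to 85477273 on the plus strand. Junb (84974484 to 84978718) and Ier2 (84661331 to 84662852) both lie on the minus strand of chromosome 8. No exon of another gene on the same strand overlapped the exons of any of the 10 genes. Exons on the opposite strand overlapped those of Jun (Junos) and Junb (Prdx2), and the counts used here were those of 1 strand.

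Promoter windows were found for 8 of the 10 genes among RefSeq sequences (GRCm38.p6), not for Egr1 and Ier2. Each gene had 1 window except Egr2, which had 5, and the 250 bases before the annotated start were searched on both strands. TGACG, the letters of the short CRE site that CREB binds, occurred in at least 1 window of 7 of the 8 genes, all except Jun, against 17.9% of 32536 promoter windows of the same length. Nr4a1 and Nr4a2 each held it 4 times, against 0.138% of all windows with at least 4 matches, and Fos held it 2 times, against 3.92% with at least 2. The full CRE TGACGTCA, which contains the short one, and the AP-1 letters TGANTCA were in no window of the 8 genes, against 1.56% and 6.73% of all windows. The EGR letters GCGNGGGCG were in the windows of Fosb, Nr4a1 and Nr4a2, against 4.74% of all. The CArG box that SRF binds was in windows of Egr2 and of none of the other genes searched (1.48% of all). The NR4A letters AAAGGTCA were in none of the genes' windows (1.35% of all). Sites farther upstream than 250 bases were not searched, so a gene without a match here may hold one there. A match is a match of letters and was not measured as a binding site. The windows of Nr4a2, the gene that differed between diets, of Nr4a1, its closest relative here, and of Fos, the best known of the group, are shown 5′ to 3′ with TGACG, or its reverse complement CGTCA, in capitals. They lie at chr2:57124004-57124253 (minus strand), chr15:101266596-101266845 (plus strand) and chr12:85473640-85473889 (plus strand).
Nr4a2: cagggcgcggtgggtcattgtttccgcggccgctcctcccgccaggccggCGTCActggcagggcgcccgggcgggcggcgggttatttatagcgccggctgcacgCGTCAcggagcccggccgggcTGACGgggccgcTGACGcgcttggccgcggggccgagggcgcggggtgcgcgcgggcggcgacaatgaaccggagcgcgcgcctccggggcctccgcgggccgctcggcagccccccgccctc
Nr4a1: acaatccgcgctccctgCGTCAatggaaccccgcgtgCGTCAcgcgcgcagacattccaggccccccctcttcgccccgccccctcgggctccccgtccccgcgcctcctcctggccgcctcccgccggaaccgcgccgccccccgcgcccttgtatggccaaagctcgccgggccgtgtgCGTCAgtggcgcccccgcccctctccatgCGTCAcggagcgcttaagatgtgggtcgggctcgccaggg
Fos: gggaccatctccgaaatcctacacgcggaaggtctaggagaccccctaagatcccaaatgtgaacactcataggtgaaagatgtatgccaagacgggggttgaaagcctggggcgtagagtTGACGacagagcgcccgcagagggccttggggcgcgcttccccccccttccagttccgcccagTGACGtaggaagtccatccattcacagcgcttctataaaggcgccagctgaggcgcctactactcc

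Read pairs on genes ranged from 13809266 to 48922569 per sample, with a median of 38719302, and the shallowest sample was HFD-O304 replicate 2. The sample titled HFD-O304 replicate 1 carries the HFD diet tag in its labels and was placed by its title. Nr4a2 in HFD-O304 vs HFD islets is given below with and without each of these samples. Replicates 1 to 4 and replicates 5 to 7 carry library numbers of separate runs of numbers, called library sets here. β-cell markers summed to between 262499 and 378213 CPM (counts scaled to library size) over all 21 samples, which is the cell type that islets should hold most of. α-cell markers summed to between 10456 and 18812 CPM in HFD islets, below every RD sample (23218 to 28922) and every HFD-O304 sample (23433 to 31822). By gene, 5 of the 7 α-cell markers were lower in HFD vs RD islets and 1 was higher (edgeR, adjusted p under 0.01). Of all genes tested, 3.54% passed in that comparison. Acinar markers ranged from 21.6 to 9504 CPM. None of the markers was at 0 in all 21 samples. In bulk RNA, fewer cells of a type and less RNA per cell cannot be told apart.

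The level of each gene was set against the others first. Per kb of merged exons, so that genes could be compared, mean levels in RD islets were 252 ± 148 normalized counts per kb for Nr4a1, 184 ± 61.1 for Jun, 141 ± 20.4 for Ier2, 137 ± 128 for Fos, 117.9 ± 29.6 for Junb, 83.1 ± 19.3 for Egr1 and 59.8 ± 19.3 for Nr4a2 (SD, n = 7 each). Npas4, at 15.5 ± 10.5, and Fosb, at 5.94 ± 7.69, were the lowest of the 9 tested genes. In each diet the ranges of neighbours in this order overlapped, except for a step down to Npas4 from the gene above it and a step down from Fosb to Egr2. Jun had the highest mean per kb in HFD islets (200 ± 77.2) and in HFD-O304 islets (168 ± 64.7). Egr2 was represented by 2 read pairs over the 21 libraries, both in RD islets, and was not tested. It had 0 read pairs among 262639784 in HFD islets and 0 among 271886509 in HFD-O304 islets, and a count of 0 allows up to 3 counts, or 0.0114 and 0.0110 CPM, for counting error only.

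Within a diet these RNAs varied more than most. The within-group SD of log2 CPM was 1.03 for Fos, 0.99 for Fosb, 0.91 for Nr4a1, 0.79 for Npas4, 0.53 for Egr1, 0.51 for Jun, 0.46 for Junb, 0.44 for Nr4a2 and 0.27 for Ier2. The median over the 13216 genes averaging 50 or more normalized counts was 0.16. Fosb, averaging 28.5, lay below that cut and so had fewer reads than those it was set against, and Npas4, at 53.2, lay just above it. Against the 13216 genes, the SD of Fos lay at the 99.6 percentile and that of Ier2, the steadiest of the 9, at the 83.5 percentile. Differences between diets in these genes therefore had to exceed a wide spread between pools of islets.

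**Figure D1:**
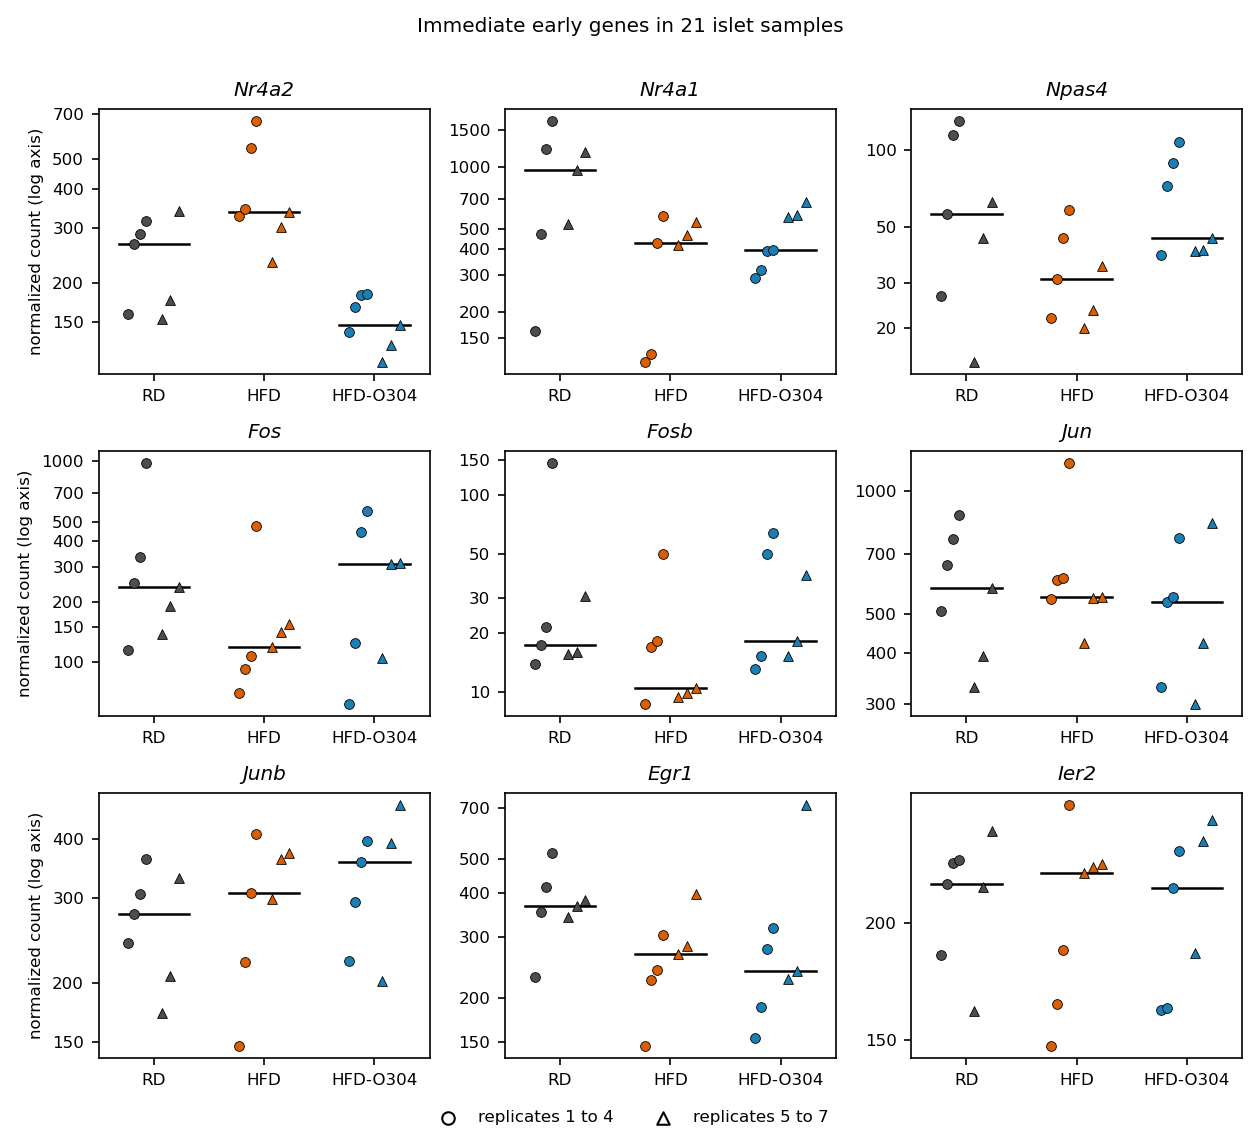
Normalized read counts (counts divided by DESeq2 size factors, log axis, scaled separately in each panel) of 9 immediate early genes by diet, with 1 point per sample, circles for replicates 1 to 4, triangles for replicates 5 to 7, and a bar at the group median. The HFD-O304 points of Nr4a2 (111.2 to 184) lie below all HFD points (234 to 663), and for the other 8 genes the diets overlap.

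Nr4a2 was the gene that differed between diets. Its normalized counts ranged from 153 to 339 in RD islets (median 267), from 234 to 663 in HFD islets (median 337) and from 111.2 to 184 in HFD-O304 islets (median 146). Every HFD-O304 sample was below every HFD sample, and RD samples overlapped both groups. In HFD-O304 vs HFD islets Nr4a2 fell by 1.38 on the log2 scale (standard error 0.21, 95% interval -1.78 to -0.97), which is 2.60-fold lower (edgeR's quasi-likelihood test with Benjamini-Hochberg adjustment, adjusted p = 1.69e-05). Of the 9 genes tested, Nr4a2 alone passed an adjusted p of 0.01 in this comparison, against 11.9% of the 27229 genes tested, so the share of the 9 that was called was near the background. Among genes without overlap between HFD-O304 and HFD samples (6.17% of all tested), Nr4a2 was also the 1 member of the 9.

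Both library sets showed the difference. In replicates 1 to 4, HFD samples had 328 to 663 normalized counts of Nr4a2 and HFD-O304 samples 139 to 184, a log2 fold change of -1.49 in a fit of that set alone (edgeR, adjusted p = 0.000185). In replicates 5 to 7, HFD samples had 234 to 337 and HFD-O304 samples 111.2 to 146, a log2 fold change of -1.18 (edgeR, adjusted p = 0.00336). Without HFD-O304 replicate 1 it was -1.42 (edgeR, adjusted p = 4.85e-05), and without HFD-O304 replicate 2 it was -1.41 (adjusted p = 3.75e-05). Summed stromal markers were also lower in HFD-O304 islets (177 to 304.5 CPM) than in HFD islets (319 to 582 CPM), and summed α-cell markers were higher. Of the 7 α-cell markers, 6 were called higher and 1 was called lower. The β-cell marker sum was lower in every HFD-O304 sample (262499 to 311033 CPM) than in every HFD sample (319647 to 378213 CPM). By gene the 10 β-cell markers were split, with 3 called higher, 3 called lower and a median log2 fold change of 0.09. Of δ-cell and PP-cell markers 5 of 6 were called higher, and 2 of 9 endothelial markers were called lower, with all 9 at a negative log2 fold change. Of 8 ductal markers, 3 were called higher and 2 lower. Over all genes tested, 11.9% were called in this comparison. The part of these markers in the Nr4a2 difference was not tested.

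Against RD islets, the HFD and HFD-O304 means of Nr4a2 lay on opposite sides, and neither difference passed the threshold. The mean was 393 ± 152 normalized counts with HFD, 243 ± 78.4 with RD and 151 ± 28.0 with O304 (SD, n = 7 each). The log2 fold change was 0.68 in HFD vs RD islets (standard error 0.20, edgeR adjusted p = 0.0335) and -0.70 in HFD-O304 vs RD islets (standard error 0.21, edgeR adjusted p = 0.0674). These comparisons share the RD samples. Nr4a3, the remaining member of the receptor family, had fewer reads, with means of 34.0 ± 14.7, 30.4 ± 28.0 and 15.96 ± 5.04 normalized counts in the same order, and a log2 fold change of -0.99 in HFD-O304 vs HFD islets (standard error 0.39, edgeR adjusted p = 0.0834).

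Nr4a1, the relative of Nr4a2 with the most reads, did not follow it. Nr4a1 ranged from 161 to 1660 normalized counts in RD islets (median 965), from 114.4 to 578 in HFD islets (median 426) and from 291 to 674 in HFD-O304 islets (median 395). RD samples reached the highest values, and 4 of the 7 lay above every HFD sample, but the groups overlapped. The log2 fold change was -1.22 in HFD vs RD islets (standard error 0.37, edgeR adjusted p = 0.0354), -0.93 in HFD-O304 vs RD islets (standard error 0.36, adjusted p = 0.199) and 0.30 in HFD-O304 vs HFD islets (standard error 0.37, 95% interval -0.42 to 1.01, adjusted p = 0.669). HFD replicates 2 and 3 held 114.4 and 125.5 normalized counts, and the other 5 HFD samples 421.5 to 578. Without RD replicate 2, the lowest RD sample, Nr4a1 passed the threshold in HFD vs RD islets, at a log2 fold change of -1.40 (edgeR, adjusted p = 0.00584).

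Npas4 ranged from 14.7 to 130 normalized counts in RD islets (median 56.3), from 19.99 to 58.1 in HFD islets (median 31.2) and from 38.8 to 107.4 in HFD-O304 islets (median 45.2). The lowest and the highest of all samples were both RD samples, and the HFD samples lay in the lower part of the range. The log2 fold change was -0.93 in HFD vs RD islets (standard error 0.37, edgeR adjusted p = 0.127), -0.08 in HFD-O304 vs RD islets (adjusted p = 0.963) and 0.86 in HFD-O304 vs HFD islets (standard error 0.37, adjusted p = 0.112). With a term for replicate number in the fit, the last value was 0.88 and passed the threshold (edgeR adjusted p = 0.00856). Whether replicate numbers pair the samples was not settled.

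The AP-1 subunits Fos and Fosb had a few high samples. Fos ranged from 114.8 to 983 normalized counts in RD islets (median 238), from 70.2 to 475 in HFD islets (median 120) and from 62.1 to 567 in HFD-O304 islets (median 309). RD replicate 4 and HFD replicate 4 were far above the other samples of their groups, and the groups overlapped over most of the range. In HFD vs RD islets the log2 fold change of Fos was -0.95 (standard error 0.48, edgeR adjusted p = 0.260), and it lay between -1.49 without HFD replicate 4 and -0.34 without RD replicate 4. Fosb ranged from 13.9 to 145 normalized counts in RD islets (median 17.2), from 8.67 to 50.05 in HFD islets (median 10.4) and from 13.1 to 64.0 in HFD-O304 islets (median 18.1). Its highest RD and HFD samples were again replicates 4. The log2 fold change of Fosb was -1.07 in HFD vs RD islets (standard error 0.54, edgeR adjusted p = 0.256), and it lay between -1.61 without HFD replicate 4 and -0.11 without RD replicate 4. In HFD-O304 vs HFD islets the values were 0.76 for Fos (standard error 0.48) and 0.86 for Fosb (standard error 0.54), with adjusted p of 0.324 and 0.318 by edgeR. They were 0.47 and 0.56 without HFD-O304 replicate 3, and 1.29 and 1.39 without HFD replicate 4.

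Jun and Junb, which supply the partner subunit of AP-1, and Ier2 had steadier levels. Jun ranged from 330 to 873 normalized counts in RD, 422 to 1176 in HFD and 299 to 835 in HFD-O304 islets. Junb ranged from 173 to 362 in RD, 147 to 409 in HFD and 202 to 470 in HFD-O304 islets. The medians of Jun were 579, 549 and 534 and those of Junb 279, 308 and 358, with overlap throughout. Ier2 had means of 214 ± 31.0, 207 ± 42.6 and 210 ± 39.9 normalized counts in RD, HFD and HFD-O304 islets (SD, n = 7 each). The 95% interval of the Ier2 log2 fold change was -0.31 to 0.21 in HFD vs RD islets and -0.23 to 0.29 in HFD-O304 vs HFD islets, the narrowest of the 9 genes.

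Egr1, whose product is a glucose-responsive zinc finger factor, ranged from 230 to 519 normalized counts in RD islets (median 367), from 146 to 397 in HFD islets (median 268) and from 154 to 715 in HFD-O304 islets (median 240). The single highest value was HFD-O304 replicate 6, and 6 of the 7 RD samples lay above 6 of the 7 HFD samples. The log2 fold change was -0.49 in HFD vs RD islets (standard error 0.25, edgeR adjusted p = 0.265), -0.28 in HFD-O304 vs RD islets and 0.22 in HFD-O304 vs HFD islets. The last of these turned to -0.18 without HFD-O304 replicate 6, and the one before it moved to -0.66.

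**Figure D2:**
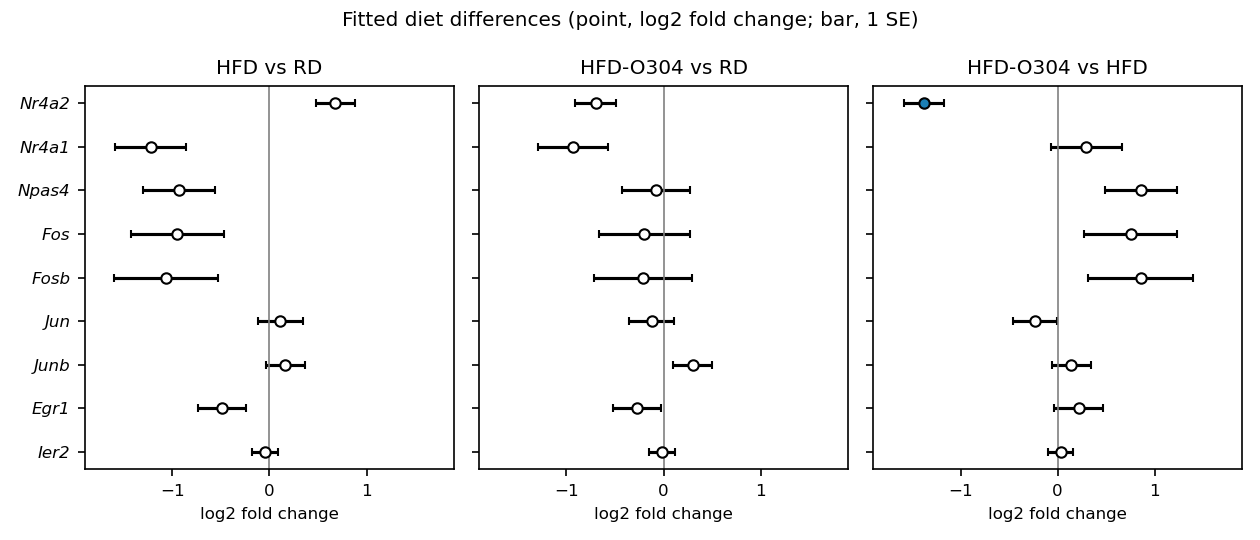
Log2 fold changes of the 9 tested genes in each diet comparison from the edgeR fit of all 21 samples, with bars of 1 standard error and filled points for an adjusted p under 0.01. Nr4a2 in HFD-O304 vs HFD islets, at -1.38, is the filled point.

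Over the group of genes, 0 of 9 passed the threshold in HFD vs RD islets by edgeR and 0 by DESeq2, where 3.54% of all genes tested passed. At an unadjusted p under 0.05, 3 of the 9 passed (Nr4a1, Nr4a2 and Npas4), against 21% of all genes. The median log2 fold change of the 9 was -0.49, beside -0.004 over all genes tested. In HFD-O304 vs RD islets 0 of 9 passed by edgeR and by DESeq2 (1.31% of all genes), and 2 passed an unadjusted p under 0.05 (Nr4a1 and Nr4a2, 14.4% of all), with a median of -0.20 beside 0.008. In HFD-O304 vs HFD islets the median of the 9 was 0.22, beside 0.027 over all genes, while the called gene, Nr4a2, was lower, and 2 passed an unadjusted p under 0.05 (Nr4a2 and Npas4, 29.3% of all).

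The library set was compared in the same way, with diet in the fit. Between replicates 5 to 7 and 1 to 4, 0 of the 9 genes passed an adjusted p of 0.01 by edgeR and by DESeq2 (2.82% of all genes by edgeR), and 4 passed an unadjusted p under 0.05 (21.5% of all). These were Npas4, with a log2 difference of -0.85 (standard error 0.26, edgeR adjusted p = 0.0411), Nr4a2, at -0.43 (standard error 0.15, adjusted p = 0.0760), Jun, at -0.44 (standard error 0.17, adjusted p = 0.120), and Fosb, at -1.02 (standard error 0.40, adjusted p = 0.125). Npas4 averaged 82.0 ± 48.7 normalized counts in RD replicates 1 to 4 (SD, n = 4) and 40.7 ± 24.1 in RD replicates 5 to 7 (SD, n = 3). In HFD islets its means were 39.1 ± 15.8 and 26.2 ± 7.80, and in HFD-O304 islets 76.8 ± 29.1 and 41.9 ± 2.88. The median over the 9 genes was -0.43, beside 0.015 over all genes. When the diet difference was allowed to depend on the set, 0 genes were called in each of the 3 comparisons by edgeR (0% of genes), and at an unadjusted p under 0.05 none of the 9 passed, against 6.84%, 5.57% and 4.83% of all genes.

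Heat shock genes, which encode chaperones induced by protein damage and share the rapid induction of immediate early genes, moved with the library set. All 14 heat shock genes listed fell in replicates 5 to 7, with a median log2 difference of -0.75 and a range of -2.55 to -0.43 (edgeR, adjusted p under 0.01 for each). Their summed level was 2222 to 3690 CPM in replicates 1 to 4 and 1562 to 1978 CPM in replicates 5 to 7, so the sets did not overlap. Hsph1, a chaperone gene, fell by 1.41 on the log2 scale (standard error 0.10, edgeR adjusted p = 1.77e-09). Hspa1a and Hspa1b, inducible chaperone genes that are near-identical copies and thus uncertain one by one, had log2 differences of -2.44 and -2.55. Between diets 0 of the 14 passed by edgeR in each of HFD vs RD, HFD-O304 vs RD and HFD-O304 vs HFD islets. All genes passed at 3.54%, 1.31% and 11.9%. At an unadjusted p under 0.05, 1, 0 and 0 passed, against 21%, 14.4% and 29.3% of all genes. All 14 had a positive log2 fold change against RD, with medians of 0.27 in HFD and 0.26 in HFD-O304 islets, beside -0.004 and 0.008 over all genes. Their part in the differences of Npas4, Nr4a2, Jun and Fosb between the sets was not tested. Of 25 other immediate early genes, 3 passed between the sets, against 2.82% of all genes. Ccn2, a matricellular gene, fell by 0.80 and Tiparp by 0.20 in replicates 5 to 7, and Csrnp1 rose by 0.44 (edgeR, adjusted p = 7.79e-05, 0.00885 and 0.00882).

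**Figure D3:**
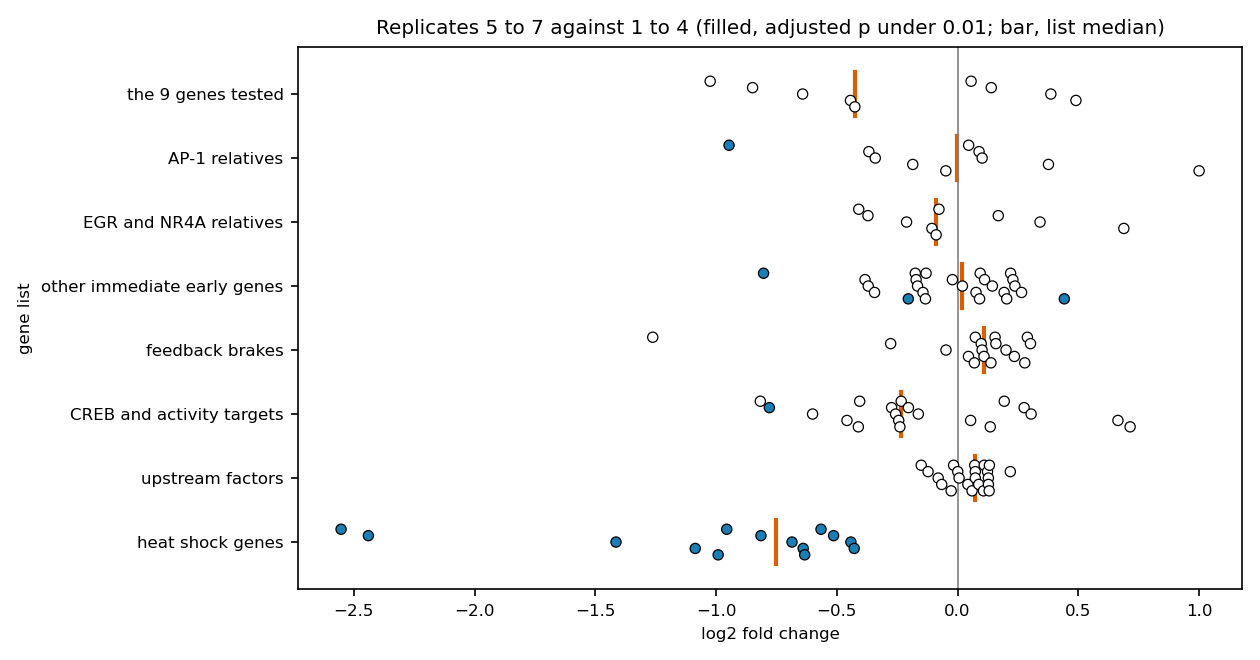
Log2 difference of replicates 5 to 7 against 1 to 4 (horizontal axis) for every tested gene of 8 gene lists (vertical axis), filled where the adjusted p was under 0.01, with a bar at the list median. All 14 heat shock genes lie at or below -0.43, while the 9 immediate early genes spread from -1.02 to 0.49.

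Whether the genes varied together between samples of a diet was examined over the 36 pairs of the 9 genes, as deviations from the diet means of log2 CPM in 21 samples. Fos and Fosb, partners of Jun in AP-1 and the pair with the strongest correlation, rose and fell together (Pearson r = 0.83, permutation p = 0.00013, adjusted p = 0.00468 over 36 pairs). Spearman's rho was 0.74 (permutation p = 0.00072, adjusted p = 0.00864), and r was 0.70 without the 2 samples farthest from the median of Fos. Within replicates 1 to 4 r was 0.90, and within replicates 5 to 7 it was 0.66. It was the only pair to pass an adjusted p of 0.01 by Pearson's r, although 24 of the 36 pairs had a positive r and the median r was 0.18.

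With the set means removed as well as the diet means, Fos and Fosb had r = 0.87 (permutation p = 0.00047, adjusted p = 0.0169), and 0 of the 36 pairs passed. The other pairs are given with diet means removed first. Fos and Egr1 had r = 0.66 (permutation p = 0.00254, adjusted p = 0.0186) and rho = 0.83 (p = 4e-05, adjusted p = 0.00144). Their r was 0.67 without the 2 samples farthest on Fos, 0.93 and 0.54 within the sets, and 0.75 with set means removed (adjusted p = 0.0302). Junb and Ier2 had r = 0.68 (permutation p = 0.0025, adjusted p = 0.0186) and rho = 0.76 (p = 0.00047, adjusted p = 0.00846). The r of Junb and Ier2 was 0.74 without the 2 farthest samples, 0.52 and 0.88 within the sets, and 0.65 with set means removed (adjusted p = 0.127). Nr4a1 and Npas4 ran in opposite directions, with r = -0.68 (permutation p = 0.00258, adjusted p = 0.0186), rho = -0.56 (p = 0.0148, adjusted p = 0.107) and r = -0.56 without the 2 farthest samples. Within replicates 1 to 4 that r was -0.72, within replicates 5 to 7 it was -0.35, and with set means removed it was -0.62 (adjusted p = 0.137). Nr4a2 and Nr4a1 had r = 0.19 (permutation p = 0.485, adjusted p = 0.689), rho = 0.27 (p = 0.289, adjusted p = 0.495) and r = 0.31 without the 2 farthest samples. Within the library sets the r of this pair of receptor genes was higher, at 0.63 in replicates 1 to 4 and 0.72 in replicates 5 to 7, and with set means removed it was 0.59 (permutation p = 0.0484, adjusted p = 0.159).

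**Figure D4:**
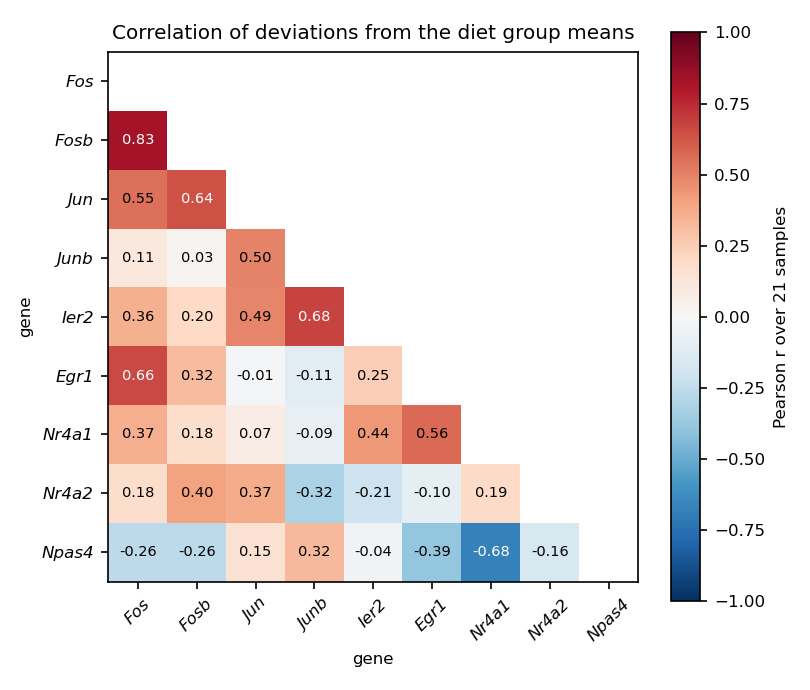
Pearson r between the 9 genes, listed on both axes, over 21 samples, computed on deviations of log2 CPM from the diet means, with blue for negative and red for positive values. Fos and Fosb have the highest r (0.83), and Nr4a1 and Npas4 the lowest (-0.68).

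Among 13208 other genes averaging 50 or more normalized counts, the gene closest in pattern to the mean of the 9 was Ccn1, a matricellular gene induced by serum, with r = 0.81 over 21 samples. The next were Rab3a (0.79), a GTPase of secretory vesicles, Ttyh2 (0.78), Chga (0.77), which encodes chromogranin A of secretory granules, Psen2 (0.77), Cdc34 (0.76), Map4 (0.75), Pus7l (0.75), Qpctl (0.75) and St14 (0.74). Without the 2 samples farthest on the mean of the 9 these values were 0.59 to 0.72. Ttyh2 was then the highest of those named, at 0.72, and Ccn1 was at 0.66. The median r over the 13208 genes was 0.01 and the 99th percentile 0.63. Of the lists examined, endothelial markers had the highest median r with the mean of the 9 (0.53 over 8 genes), followed by ductal markers (0.45 over 6 genes). Ppp1r15a (0.73) and Zfp36 (0.68), of the feedback brakes described below, lay above the 99th percentile. The endothelial gene Plvap (0.65), the ductal gene Krt19 (0.63) and the stromal gene Des (0.66) also lay at or above it. Other endothelial genes were lower, down to 0.25 for Egfl7, and other ductal genes were lower, down to 0.23 for Sox9. Other stromal genes were also lower, down to -0.16 for Dcn, and the stromal median was 0.20 over 8 genes. The part of these cell types in the pattern was not tested. The samples share depth and library set, and these r are descriptive.

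Relatives of the 9 genes and the genes around them in the pathway were followed as lists. In HFD-O304 vs HFD islets 1 of 10 AP-1 relatives tested passed the threshold, which was Atf3, a stress-induced factor that pairs with Jun. This share, like that of the EGR and NR4A relatives, was near the 11.9% of all genes called. The mean of Atf3 was 40.4 ± 17.2 normalized counts in HFD islets, above 18.7 ± 5.66 in RD and 17.3 ± 8.47 in HFD-O304 (SD, n = 7 each), and it fell by 1.28 on the log2 scale in HFD-O304 vs HFD islets (standard error 0.30, edgeR adjusted p = 0.00252). It is named although its mean was below 50 normalized counts, and was also lower in replicates 5 to 7 (log2 difference -0.95, adjusted p = 0.00193). Of 9 EGR and NR4A relatives, 1 fell, Nab1, a corepressor of EGR factors (-0.33, edgeR adjusted p = 0.000183). The medians of these lists were 0.05 and -0.15, beside 0.027 over all genes.

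Among 25 other immediate early genes, Gadd45b, a stress sensor of the DNA damage response, rose by 1.18 on the log2 scale in HFD-O304 vs HFD islets, from 213 ± 44.5 to 489 ± 116.4 normalized counts (SD, n = 7 each, edgeR adjusted p = 0.000191). Myc, a growth-promoting transcription factor, fell by 0.74 (edgeR adjusted p = 0.00936). The other 23 did not pass, so 2 of the 25 were called, against 11.9% of all genes. The list median was -0.13, beside 0.027 over all genes. In HFD vs RD and HFD-O304 vs RD islets 0 of the 25 passed by edgeR, against 3.54% and 1.31% of all genes. At an unadjusted p under 0.05, 9 and 8 passed, against 21% and 14.4% of all genes.

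Feedback brakes are phosphatases, RNA decay factors and inhibitors that immediate early signals induce and that end those signals. Of 17 tested, 5 fell and 1 rose in HFD-O304 vs HFD islets, where 11.9% of all genes were called, with a list median of -0.11. Dusp6, the phosphatase of ERK, averaged 1294 ± 305 normalized counts in HFD islets, 841 ± 122 in RD islets and 614 ± 60.1 with O304 (SD, n = 7 each). It rose by 0.61 on the log2 scale in HFD vs RD islets (standard error 0.11, edgeR adjusted p = 0.000995) and fell by 1.07 in HFD-O304 vs HFD islets (adjusted p = 1.6e-07). Socs3, an inhibitor of cytokine receptors, fell by 0.59 and Zfp36l1, which promotes decay of AU-rich RNAs, fell by 0.45, while Trib1, a pseudokinase, rose by 0.37. Socs3 was the 1 brake of 17 that passed in HFD-O304 vs RD islets (1.31% of all genes), where it fell by 0.48 (edgeR adjusted p = 0.00867).

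CREB and activity targets had the most called genes of these lists, with 7 of 20 lower and 2 higher in HFD-O304 vs HFD islets, where 11.9% of all genes were called, and a median of -0.32. Inhba, which encodes the βA subunit of activin, averaged 163 ± 54.2 normalized counts in HFD islets, 57.9 ± 10.6 in RD islets and 29.2 ± 10.4 with O304 (SD, n = 7 each). It rose by 1.48 in HFD vs RD islets (edgeR adjusted p = 3.45e-05) and fell by 2.42 in HFD-O304 vs HFD islets (adjusted p = 5.61e-09). Vgf, a granule protein of neuroendocrine cells, averaged 3899 ± 1642, 1930 ± 922 and 729 ± 329 in the same order. It fell by 2.40 in HFD-O304 vs HFD islets (adjusted p = 7.63e-07) and by 1.40 in HFD-O304 vs RD islets (adjusted p = 0.00374), and was also lower in replicates 5 to 7 (log2 difference -0.78, adjusted p = 0.00609). Tent5a fell by 1.12 in HFD-O304 vs HFD islets, while Ppp1r1a, an inhibitor of protein phosphatase 1, rose by 0.60 and Gem, a GTPase that restrains calcium channels, rose by 0.46. Against RD islets, Scg2, a granin, rose by 0.38 in HFD islets and fell by 0.60 in HFD-O304 islets, and Nfil3 fell by 0.99 in HFD-O304 islets (edgeR, adjusted p under 0.01 for each).

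Of 22 upstream factors, Camk4, a calcium-dependent kinase of CREB, fell by 0.72 in HFD vs RD islets (edgeR adjusted p = 0.00117) and rose by 0.69 in HFD-O304 vs HFD islets (adjusted p = 0.00048). Crtc2, a CREB coactivator, rose by 0.37 in HFD-O304 vs HFD islets and Mrtfb, a coactivator of SRF, by 0.28, while Mef2c, a factor controlled by calcium, fell by 0.40. The list median was 0.14, beside 0.027 over all genes. The called genes numbered 4 of 22 in HFD-O304 vs HFD islets (11.9% of all genes) and 1 in HFD vs RD islets (3.54%). At an unadjusted p under 0.05 these counts were 15 (29.3% of all genes) and 7 (21%). By edgeR 0 of the 22 passed in HFD-O304 vs RD islets (1.31% of all genes), with 4 at an unadjusted p under 0.05 (14.4%).

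**Figure D5:**
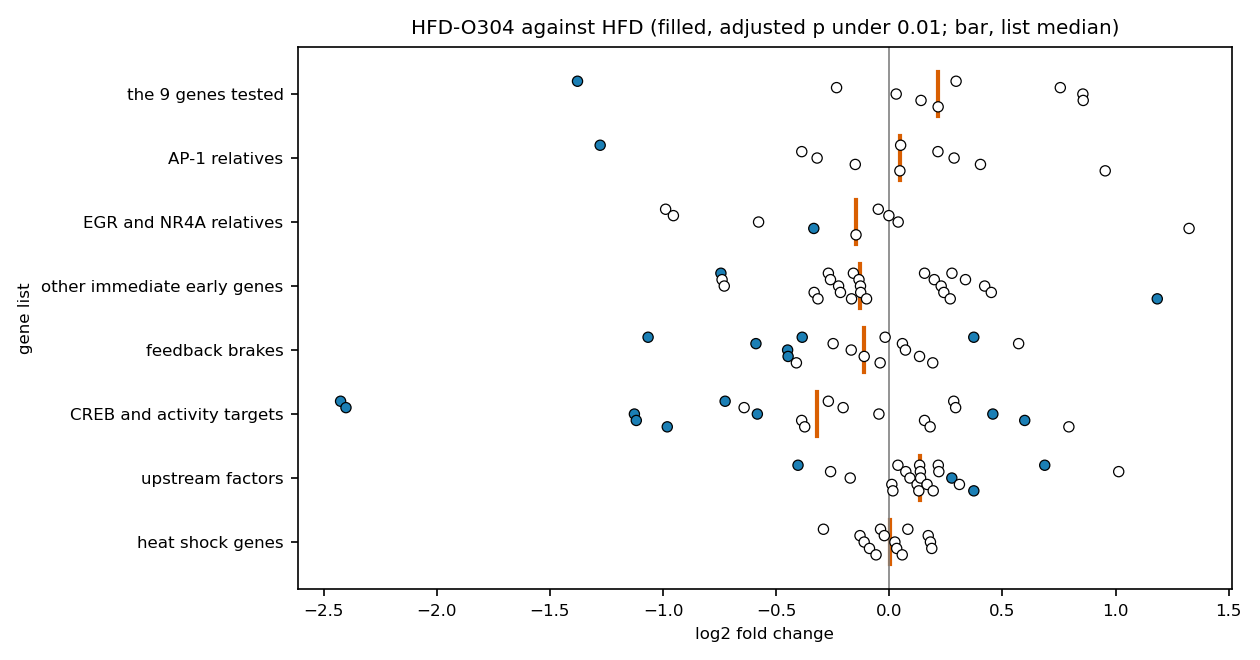
Log2 fold change in HFD-O304 vs HFD islets (horizontal axis) of every tested gene in 8 gene lists (vertical axis), filled where the adjusted p was under 0.01, with a bar at the list median. CREB and activity targets hold the lowest points, Inhba at -2.42 and Vgf at -2.40, and Nr4a2 at -1.38 is the filled point among the 9 immediate early genes.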

How the data were processed

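The authors aligned paired-end reads to GRCm38 with an Ensembl annotation by STAR, and what they deposited for each of the 21 samples are raw gene counts from that aligner. Read pairs matching more than 1 place or gene are left out of such counts. The count of the strand that held 28.8 to 36.3 times the other was used. Samples were grouped by title. All 21 samples entered 1 fit of edgeR 4.0.16 (TMM factors 0.907 to 1.07, quasi-likelihood test, R 4.3.3) on the 27229 of 55536 genes with at least 10 read pairs in all, and genes were called at a Benjamini-Hochberg adjusted p under 0.01. DESeq2 1.42.0 was an alternative. For normalized counts, DESeq2 size factors were used as divisors, and log2 CPM used a prior count of 1. Correlations used 100000 permutations within diets. Replicates differed by more than sampling noise (chi-square per gene 8.05 to 101). Depth, 13809266 to 48922569 read pairs on genes, limits the precision of genes with few reads, and intervals cover the spread between 7 pools. The edgeR and DESeq2 scripts were tested on simulated data.

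The members and gene lists were chosen with earlier results of these data known. All 10 members are named, and of each list up to 3 called genes with the largest rise and 3 with the largest fall, averaging 50 or more normalized counts. Alternatives changed the threshold, the test, the size factors, the low-count filter, the strand, which samples were fitted, or the terms (replicate block, set), and left out each sample. ChIP-seq was not analysed here. Promoter sequences came from RefSeq (GRCm38.p6) and gene positions from GENCODE M21. Figures were drawn with matplotlib 3.10.9.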

Additional observations from a re-analysis of the deposited data

Results flagged for a closer look

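Of the 27 sets of 7 samples tested for a sample that stands apart (9 genes in 3 diets, Dixon's criterion at 95%), 6 held one. Chance gives about 1 in 20 for independent sets of normally distributed values, which these counts, wide in spread and correlated between Fos and Fosb, need not be. RD replicate 4 had 983 normalized counts of Fos and 145 of Fosb, above the next RD samples at 336 and 30.7. HFD replicate 4 had 475 normalized counts of Fos, 50.05 of Fosb and 1176 of Jun, where the next HFD samples had 155, 18.1 and 612. HFD-O304 replicate 6 had 715 normalized counts of Egr1, and the next HFD-O304 sample had 317. Both replicates 4 had the highest β-cell marker sum of their diet, 341309 CPM in RD and 378213 CPM in HFD islets. They also had the highest ductal marker sum, 458 and 615 CPM. RD replicate 2, with the lowest Fos of the RD samples (114.8 normalized counts), nearly matched RD replicate 4 in ductal sum, at 457.3 against 457.9 CPM. The part of these sums in the high values was not tested. Fold changes of Fos and Fosb in HFD vs RD islets without RD replicate 4 and without HFD replicate 4 are given with the results.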

How the results depend on the processing

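Nr4a2 in HFD-O304 vs HFD islets passed the threshold under every alternative run, at -1.47 to -1.21 (log2) with 1 sample left out in turn. Of 1125 values of the 9 genes under alternatives, 1079 kept direction and side of the threshold, 39 reversed, 7 newly passed and 0 were lost. Whether samples of the same replicate number belong together was left unsettled. Values follow for HFD against RD, O304 against RD and O304 against HFD, in that order. Same-numbered samples had a mean r of 0.199, 0.294 and 0.136, beside -0.034, -0.048 and -0.019 for other pairs. Of 7 same-numbered correlations, 4, 6 and 5 were over 0.1. Of 7 samples, 3, 2 and 2 correlated best with their own number. With a replicate block 2 of the 9 passed in HFD-O304 vs HFD islets (Nr4a2 and Npas4). With that block, Fosb and Npas4 in HFD-O304 vs RD islets were 0.030 and 0.056. At an adjusted p under 0.05, 2 passed in HFD vs RD islets and 1 between library sets. Of the correlated pairs, 3 passed by Spearman's rho and 0 with set means removed (both chosen after seeing the data). With 1 sample left out, 0 to 1 of the 9 passed in HFD vs RD islets (Nr4a1 without RD replicate 2, Nr4a2 without HFD replicate 7), 1 to 1 in HFD-O304 vs HFD islets, 0 to 0 in HFD-O304 vs RD islets and 0 to 1 between sets (Nr4a2 without RD replicate 5).

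In replicates 1 to 4 alone Junb in HFD vs RD islets was -0.12. In replicates 5 to 7 alone Ier2 in HFD vs RD islets was 0.13, HFD-O304 vs RD values were 0.37 for Fos, 0.22 for Fosb, 0.25 for Jun, 0.14 for Egr1, 0.13 for Ier2 and 0.068 for Npas4, and Jun in HFD-O304 vs HFD islets was 0.036. The set difference within RD islets was -0.33 for Junb, -0.061 for Egr1 and -0.053 for Ier2. With 1 sample left out, HFD vs RD values were -0.12 to 0.018 for Ier2 and -0.11 to 0.24 for Jun. HFD-O304 vs HFD values were -0.18 to 0.34 for Egr1 and -0.036 to 0.095 for Ier2. HFD-O304 vs RD values were -0.48 to 0.42 for Fos, -0.51 to 0.74 for Fosb, -0.078 to 0.039 for Ier2, -0.26 to 0.011 for Jun and -0.30 to 0.19 for Npas4. The set difference of Junb was -0.024 to 0.14.

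Genes called over all genes in HFD vs RD islets were 963, and 1758 by DESeq2, 1577 with the block, 1611 with the set as covariate, 2148 at 0.05, 627 from the compared groups alone, 563 and 307 within the sets, and 589 to 1594 with 1 sample left out. In HFD-O304 vs RD islets 356 became 727, 543, 543, 785 at 0.05, 85 and 228 within the sets, and 221 to 423. In HFD-O304 vs HFD islets 3230 became 5150 at 0.05, 2001 and 1456 within the sets, and 2643 to 3578. Between sets 768 became 1728 by DESeq2, 2198 at 0.05, 4, 15 and 12 within RD, HFD and HFD-O304, and 330 to 987. The cause of these changes was not tested, except that fits within a set or diet hold fewer samples.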
